A study of Homo sapiens with 24 samples.

Results

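Cell cycle and DNA replication genes were followed through an optogenetic experiment in human embryonic stem cells. The set held 53 genes of 28301 features in the deposited table, each matched by its gene symbol. They were chosen as named cell cycle genes, with earlier results of these data known. They are described here by role: cyclins and their kinases, kinase regulators, the RB and E2F families, origin licensing and replication, and mitosis. The cells were H9, an established embryonic line, in E8 medium, and RNA was sequenced in 24 libraries that make 8 groups of 3. In 4 of the groups, called engineered below, the cells carried a fusion of the plant photoreceptor Cry2 with the intracellular part of the Wnt co-receptor LRP6, followed by 2A-mCherry, and a puromycin resistance gene. The others were wild-type cells with reads for eGFP and a neomycin resistance gene in monoculture and co-culture alike. Monocultures of each kind (Cry2, wt) were kept in the dark or under light of 0.8 µW/mm2 for 48 h. Mixed cultures, started 1 to 1, had the same dark and light arms and were sorted by flow cytometry into mCherry-positive engineered cells (mCh) and GFP-positive wild-type neighbours (GFP). Both kinds of sorted cell came from mixed cultures, but the sources used here do not tie an mCh library to a GFP library, and the tests treat them as unpaired. Each biological replicate pooled 2 to 3 wells, and nothing in the labels says whether replicates came from separate passages or days, so that the tests measure the spread between these samples. The sources used here do not say whether the engineered cells were 1 clone.

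Progress through the cell cycle is driven by cyclin-dependent kinases, which are active only when bound to a cyclin. D-type cyclins with CDK4 or CDK6 and E-type cyclins with CDK2 phosphorylate RB proteins, and this frees E2F factors to transcribe genes for DNA synthesis. A-type and B-type cyclins then carry the cell through S phase and into mitosis. Human pluripotent stem cells are known for a short first gap phase and for high expression of much of this machinery. CCND1 is a known transcriptional target of Wnt signalling in many cell types.

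Values are normalised read counts: the number of reads of a gene divided by 1 scaling factor per library. Assigned reads ran from 28237578 to 34291124 in the 6 dark monocultures, from 45763662 to 54707558 in the 6 light monocultures and from 31807414 to 56639833 in the co-cultures, so depth and light cannot be told apart by library size in the monocultures. Group names follow the sample titles; in the monocultures another label names the opposite genotype, and the construct's reads went with the titles (mean 35763 in Cry2 dark and 381.7 in wt dark). The libraries mCh light a and wt light replicate 2 stood apart from the other libraries of their group, with a chi-square per degree of freedom of 68.9 and 78.6 for the first and 56.8 and 46.7 for the second, against 4.37 to 27.0 for all other replicate pairs. Over 52 members their deviations went with exon length. In wt light replicate 2 the median log2 deviation from the other 2 libraries was -0.36 for the 10 longest members and 0.194 for the 10 shortest (Pearson r = -0.755). In mCh light a it was 0.43 for the longest and -0.243 for the shortest (r = 0.566). The library GFP light a had a weaker pattern of the same sign (0.194 and -0.182, r = 0.529), with a chi-square of 21.0 and 27.0 against the other 2. Over 20246 genes the correlations were weaker, at -0.205 in wt light replicate 2, 0.082 in mCh light a and 0.081 in GFP light a. Correlations over the members also occurred in other libraries, among them -0.567 in mCh light c and -0.488 in mCh dark a. Deviations within a group are linked, because each is taken from the other 2 libraries. Where leaving out mCh light a changed a member's call for light in mCh cells, the value without it is given beside the result. In bulk RNA, fewer cells in a given phase and less RNA per cell cannot be told apart.

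**Figure D1:**
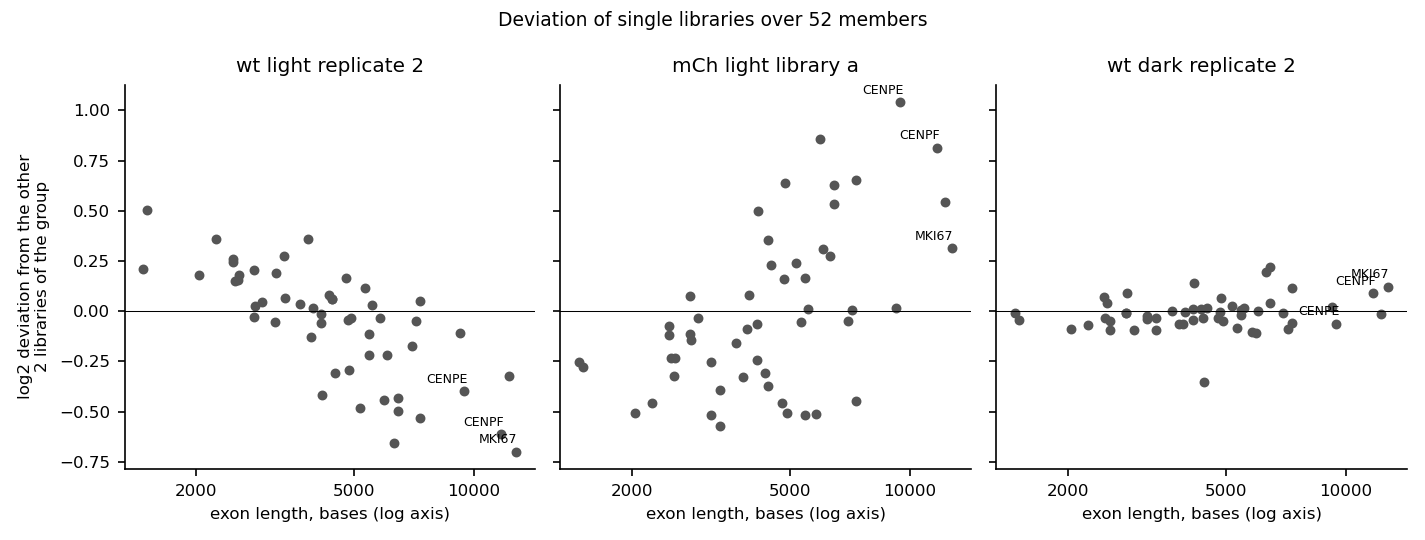
Log2 deviation of a library from the mean of the other 2 libraries of its group (vertical axis) against the exon length of each of 52 members (horizontal log axis), for the 2 libraries that stood apart and, for comparison, wt dark replicate 2. The long transcripts MKI67, CENPE and CENPF lie low in wt light replicate 2, high in mCh light a and near 0 in wt dark replicate 2.

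Light changed the levels of many cell cycle transcripts in engineered cells, in both directions and mostly by modest amounts. In monoculture, 22 of 52 members tested were higher under light and 10 lower by limma at an adjusted p below 0.05; over all 19444 genes 28.1% were higher and 30.4% lower. The members' share of rises (42.3%) thus lay above the background and their share of falls (19.2%) below it, with no test of either difference. The changes were small beside those of other genes: the median size of the log2 change was 0.316 over the members and 0.507 over all genes. The members' median was also the lower where few genes were called. It was 0.098 against 0.149 for light in wt cells, and 0.052 against 0.104 for mCh dark against GFP dark. The gap was thus not particular to light in engineered cells. In Cry2 light 3 members (5.77%) moved by more than 1 on the log2 scale, against 30.4% of all genes. Those 3 were E2F2, which fell, and CCNE2 and TYMS, which rose. In sorted engineered cells from co-culture, 22 members were higher and 9 lower, against 27.2% and 28.7% of 19436 genes. Without the library mCh light a the counts were 27 and 11. The shares of all genes without that library are not given here. Without it RBL2 and ORC1 were no longer called, CCNB1, CCNB2, E2F1, GMNN, MCM7 and AURKB passed as higher, and TOP2A, RBL1 and BUB1 passed as lower. The remaining member, CDKN2C, was too low to test. Under every alternative tried, including each library left out, 26 of the 32 calls in Cry2 light held (AURKA, E2F1, E2F8, MCM5, MCM7 and PCNA were lost in some) and 21 of the 31 in mCh light (AURKA, BIRC5, CDKN1B, CDT1, E2F3, E2F8, MCM2, ORC1, PLK1 and RBL2 were lost in some), and no called change reversed.

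The co-cultured and monocultured engineered cells share no library, and their light effects on the members lay close together (Pearson r = 0.968, Spearman rho = 0.971 over 52 genes; 0.965 and 0.907 over 19020 genes). Of the called members 25 were called in both cultures, 17 higher and 8 lower, all in the same direction in both. They made up 78.1% of the calls in monoculture and 80.6% of those in co-culture. The share of all genes called in both cultures was not counted, so these 2 shares have no background beside them. No member's light effect differed between the engineered cells of the 2 cultures by limma (0 of 52, against 0.064% of all genes), nor by edgeR or DESeq2. At an unadjusted limma p below 0.05 there were 0 members and 1018 of 20322 genes. The widest gap was CDKN2D, 0.67 larger in co-culture (SE 0.39, adjusted p = 0.964).

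**Figure D2:**
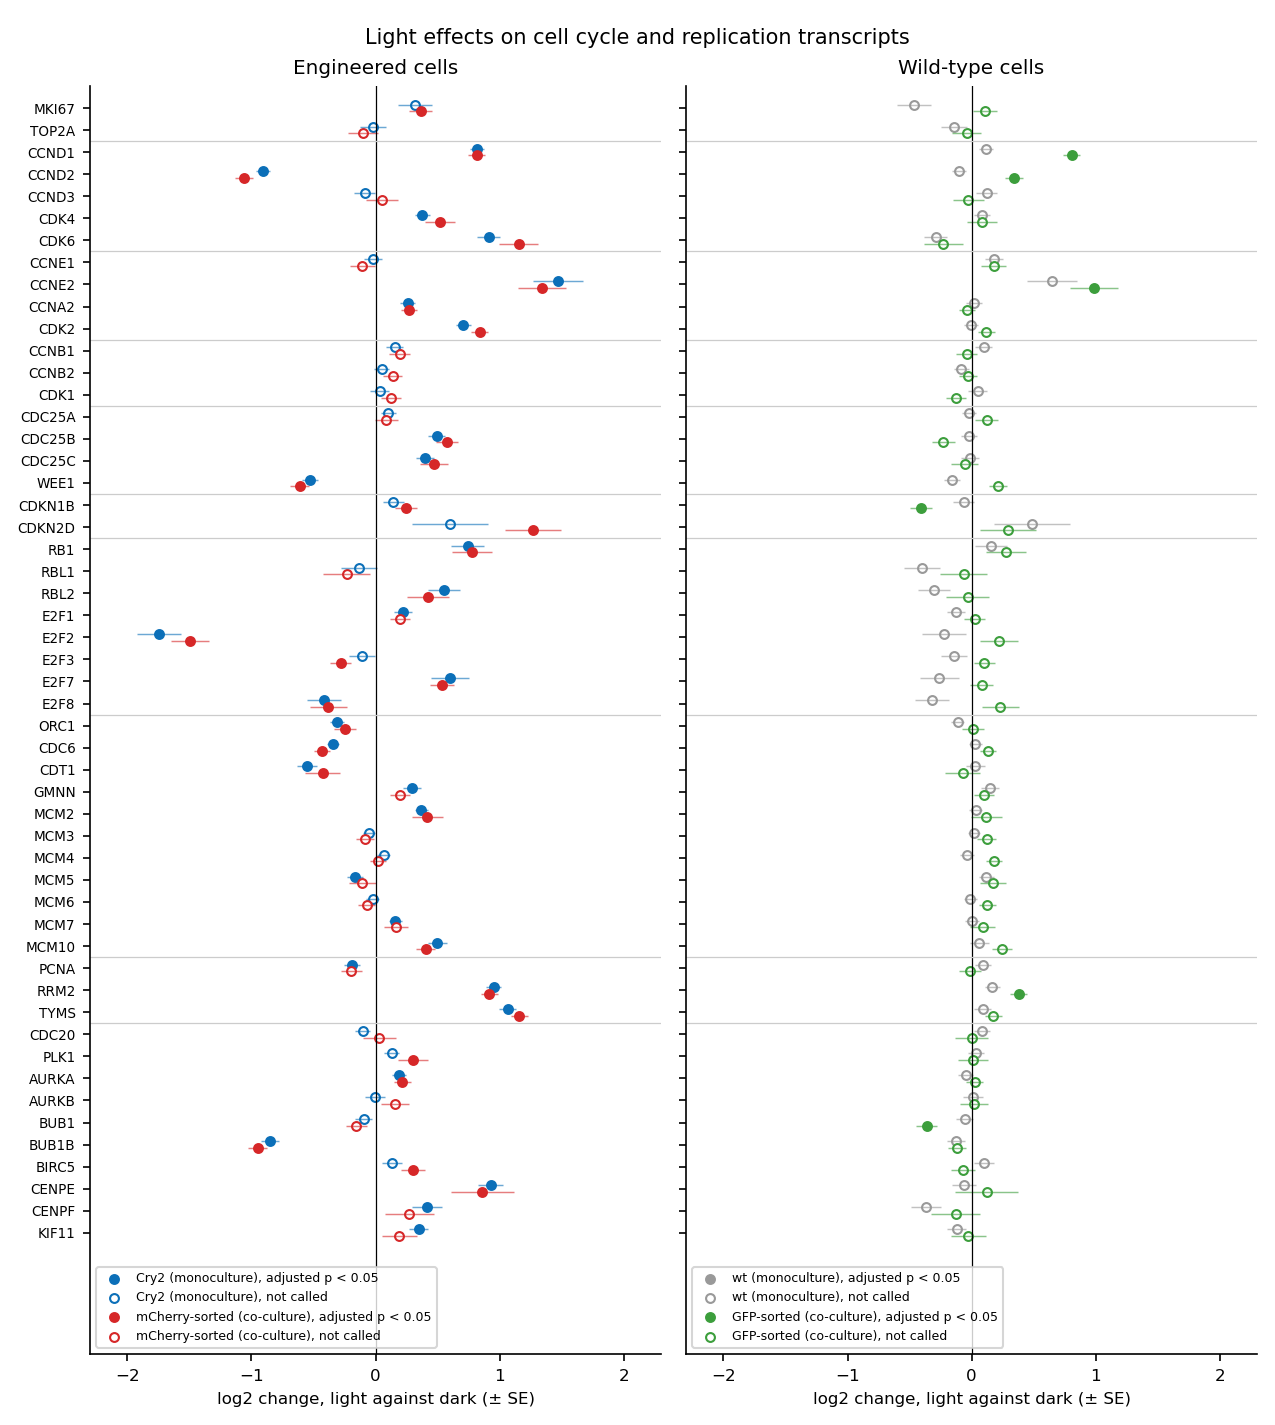
Log2 change from dark to light (horizontal axis, with the standard error) for 52 members ordered by role, in engineered cells (left) and wild-type cells (right), from monoculture and co-culture; filled points passed an adjusted p of 0.05. The 2 engineered series run side by side from E2F2 at -1.75 and -1.49 to CCNE2 at 1.47 and 1.34, while wild-type monocultures have no filled point and GFP-sorted neighbours have 6.

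Among the D-type cyclins, the regulatory partners of CDK4 and CDK6, the direction differed from gene to gene. CCND1 (protein coding, chr11:69641087-69654474 on the plus strand of GRCh38 in GENCODE 29, as for the positions below) had 4006, 4008 and 4219 normalised reads in the 3 Cry2 dark libraries and 7580.1, 7298 and 6735 under light, with no overlap, and rose by 0.82 on the log2 scale (SE 0.06, adjusted p = 5.7e-09). In sorted engineered cells it went from 3961, 4172 and 3894 to 7597, 7028 and 6578, a rise of 0.82 (SE 0.07, adjusted p = 1.04e-07). In the wild-type neighbours CCND1 rose too, from 4857, 4804 and 4643 to 8286, 8328 and 8393, by 0.81 (SE 0.07, adjusted p = 6.37e-06). The difference between these 2 effects was 0.01, with a 95% interval of ± 0.21. Every GFP light library lay above every mCh light library. Wild-type monocultures stood at 4658, 4762 and 4899 in the dark and 5256, 5077 and 5206 under light, ranges that did not overlap, though the change of 0.12 missed the threshold (SE 0.06, adjusted p = 0.389). The light effect in neighbours exceeded that in wild-type monocultures by 0.69 (SE 0.09, adjusted p = 2.3e-05).

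CCND2 (chr12:4273772-4305350, plus strand), which encodes another D-type cyclin, moved in opposite directions in the 2 kinds of co-cultured cell. In Cry2 cells it fell from 7451, 7243 and 7215 to 3976, 3778 and 3937, a change of -0.91 (SE 0.06, adjusted p = 2.12e-09). In mCh cells it fell from 7896, 7245 and 7420.3 to 3616, 3599 and 3597, a change of -1.06 (SE 0.07, adjusted p = 7.75e-09). The neighbours went the other way, from 7182, 6945 and 6133 to 8629.8, 8488 and 8472, by 0.34 (SE 0.07, adjusted p = 0.013); this rise missed the threshold without GFP light b (adjusted p = 0.0546) or without GFP dark c (adjusted p = 0.081). No dark and light library overlapped in any of these 3 pairs of groups. The effects in mCh and GFP cells differed by -1.40 (SE 0.10, adjusted p = 3.95e-08). Wild-type monocultures had 6199, 5500.3 and 5500.5 in the dark and 5428, 5222 and 5367 under light, with a change of -0.10 (SE 0.06, adjusted p = 0.461). CCND3, the lowest of the D-type cyclins per kilobase of exon in every group, was not called in any comparison; its log2 light changes were -0.09 in Cry2, 0.05 in mCh, -0.03 in GFP and 0.12 in wt cells. Per kilobase of exon, CCND2 exceeded CCND1 in Cry2 dark (means of 1020 and 844.2) and the order was reversed under light (544.5 and 1492). Of the exon bases of CCND2, 13.8% overlap the protein-coding gene AC008012.1 on the same strand.

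The kinases that pair with these cyclins rose in engineered cells. CDK6 went from 2004, 1882 and 1679 in Cry2 dark to 3666, 3248 and 3546 under light (0.91 log2, SE 0.09, adjusted p = 5.33e-07). In mCh cells it went from 1312, 1738 and 1703 to 4503, 3091 and 3076 (1.15, SE 0.16, adjusted p = 1.48e-05). Both rises separated dark from light libraries completely, and the change was -0.29 in wt and -0.23 in GFP cells, neither past the threshold. The light effect on CDK6 was larger in engineered cells by 1.20 in monoculture (SE 0.13, adjusted p = 2.04e-06) and by 1.38 in co-culture (SE 0.22, adjusted p = 0.000132). CDK4, the more abundant kinase per kilobase of exon (3101 against 151.3 in Cry2 dark), rose by 0.38 in Cry2 (SE 0.06, adjusted p = 9.34e-05) and by 0.52 in mCh cells (SE 0.12, adjusted p = 0.00197), and by 0.69 without the library mCh light a. Of the exon bases of CDK4, 43.2% overlap TSPAN31 on the opposite strand, and the sources used here do not say whether reads were counted by strand.

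**Figure D3:**
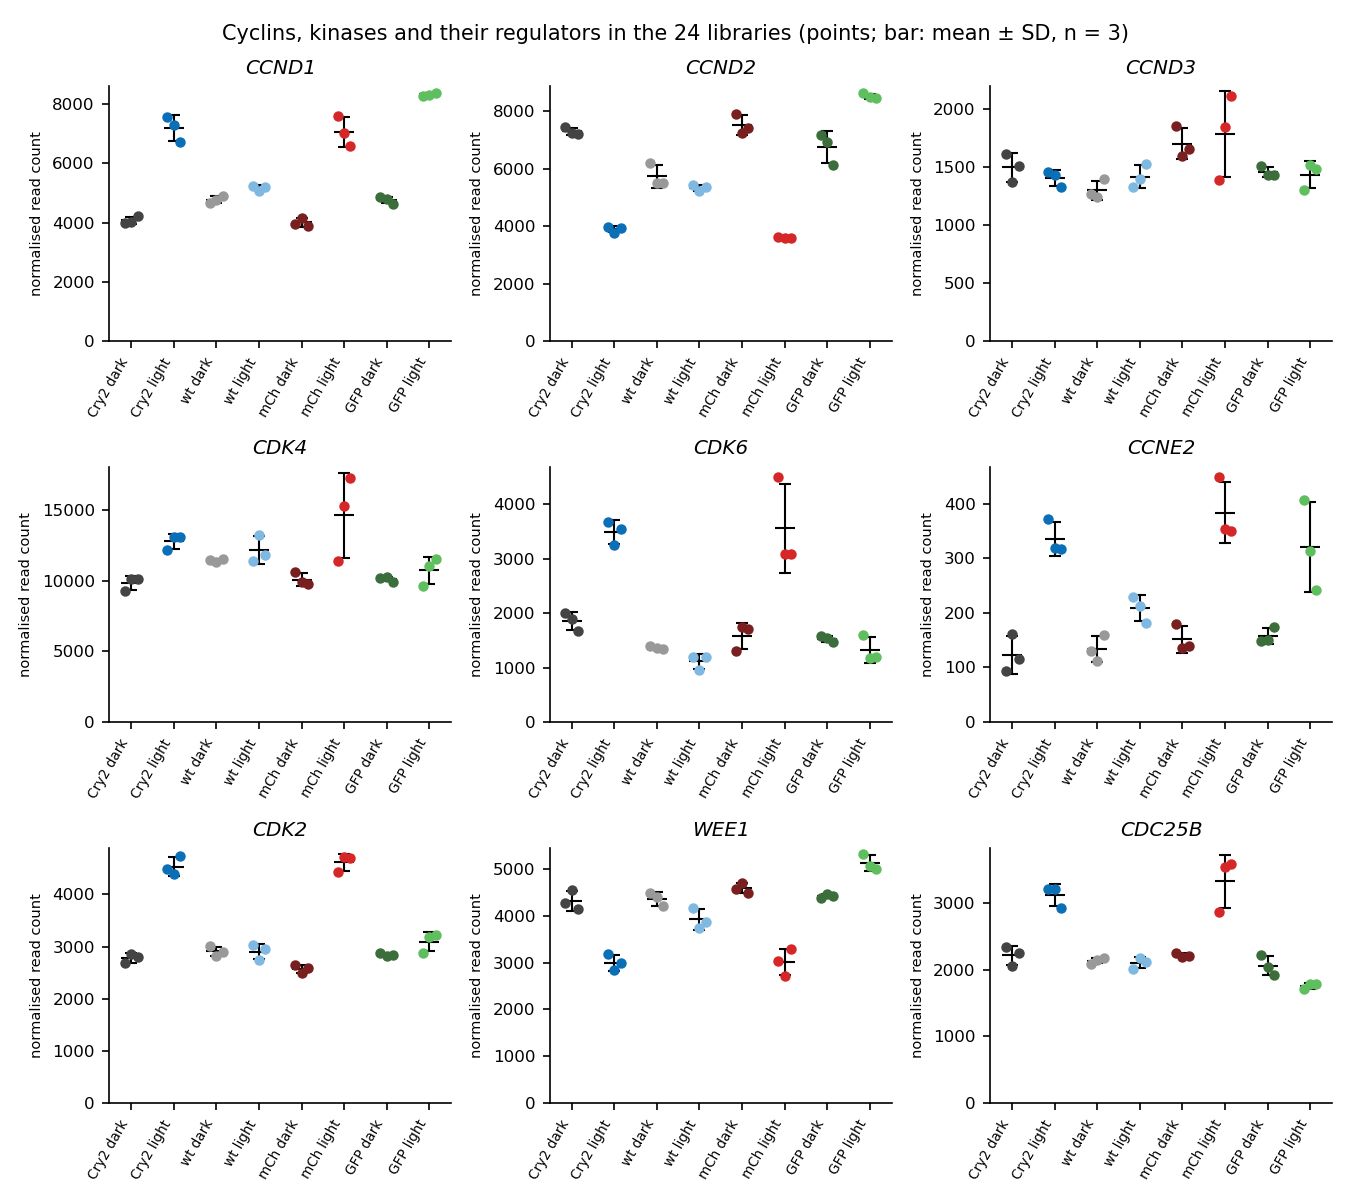
Normalised read counts (vertical axis, from 0) of 9 cyclin, kinase and kinase-regulator genes in every library of the 8 groups (points), with the mean and SD of each group (bars, n = 3). CCND1 is highest in GFP light (8286 to 8393) and CCND2 is lowest in the 2 engineered light groups and highest in GFP light.

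The E-type cyclins, which activate CDK2 at the entry to S phase, split. CCNE2, the less abundant of the pair per kilobase of exon in every group, went from 92.7, 161 and 116 in Cry2 dark to 372, 318 and 317 under light, 1.47 higher on the log2 scale (SE 0.20, adjusted p = 1.37e-05). It was 1.34 higher in mCh light (SE 0.19, adjusted p = 2.86e-05), where the values were 449, 353 and 349 against 179.8, 136 and 138 in the dark. Neighbours rose too, from 149, 151 and 175 to 406, 313 and 243 (0.99, SE 0.19, adjusted p = 0.00785). All light libraries lay above all dark libraries in these groups. The same held in wild-type monocultures, with 129, 112 and 159 in the dark and 229.7, 213 and 182 under light, but the change of 0.65 missed the threshold (SE 0.20, adjusted p = 0.232). The effect in mCh cells exceeded that in GFP cells by 0.35, with a 95% interval of ± 0.58. INTS8 overlaps 37.0% of the exon bases of CCNE2 on the opposite strand, so reads in that stretch cannot be assigned to CCNE2 with certainty. CCNE1 was not called for light in any group (-0.02 in Cry2, 95% interval ± 0.15).

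CDK2, the kinase partner of both E-type and A-type cyclins, rose in engineered cells. It had 2677, 2860.2 and 2798 in Cry2 dark and 4490.4, 4382 and 4726 in Cry2 light (0.71, SE 0.06, adjusted p = 7.46e-08). In mCh cells it went from 2642, 2491 and 2594 to 4421, 4706 and 4703 (0.84, SE 0.07, adjusted p = 8.44e-08). Neither range overlapped, and the change in wt was -0.01 and in GFP cells 0.12, neither called. CCNA2, the S phase and mitotic A-type cyclin, rose by 0.26 in Cry2 (SE 0.06, adjusted p = 0.00283) and 0.27 in mCh cells (SE 0.07, adjusted p = 0.00253).

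No light change was called for the mitotic kinase CDK1 or its cyclins CCNB1 and CCNB2 in any of the 4 kinds of culture with all libraries. Without mCh light a, CCNB1 was 0.27 higher (limma adjusted p = 0.00433) and CCNB2 0.18 higher (adjusted p = 0.0455) in mCh light. In Cry2 cells the log2 changes were 0.03 for CDK1 (95% interval ± 0.16), 0.05 for CCNB2 (± 0.13) and 0.15 for CCNB1 (± 0.14, adjusted p = 0.0576). CDK1 values in Cry2 cells were 6260.4, 6844 and 5645 in the dark and 6539, 5720.0 and 6919 under light, and these ranges overlapped. Of the 2 markers of proliferating cells, TOP2A, the topoisomerase of dividing cells, changed by -0.02 in Cry2 (± 0.23) and -0.10 in mCh cells, neither called; without mCh light a the mCh change was -0.28 (limma adjusted p = 0.00248). MKI67, which encodes the Ki-67 protein, was 0.32 higher in Cry2 light (SE 0.14, adjusted p = 0.0609) and 0.36 higher in mCh light (SE 0.09, adjusted p = 0.00391; 0.26 without mCh light a). MKI67 is among the longest members, and its 3 wt light values of 15254, 8968 and 13899 were lowest in replicate 2, the library that stood apart.

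Of the enzymes that set the phosphorylation of CDK1 and CDK2, CDC25B and CDC25C, phosphatases that activate the kinases, rose in engineered cells, and WEE1, the kinase that inhibits them, fell. CDC25B went from 2338, 2056 and 2258 to 3218, 3208 and 2929.8 in Cry2 cells (0.49, SE 0.07, adjusted p = 1.26e-05), and rose by 0.58 in mCh cells (SE 0.09, adjusted p = 6.42e-05). CDC25C rose by 0.40 in Cry2 (SE 0.07, adjusted p = 0.000203) and 0.47 in mCh cells (SE 0.11, adjusted p = 0.00228). WEE1 fell from 4265, 4555 and 4143 to 3174, 2832 and 2988 in Cry2 cells (-0.53, SE 0.07, adjusted p = 4.42e-06) and changed by -0.61 in mCh cells (SE 0.07, adjusted p = 5.62e-06), in each case with no overlap. In the neighbours WEE1 went from 4384, 4466 and 4428 to 5318, 5061 and 5009, again with no overlap, but the change of 0.21 was not called (SE 0.07, adjusted p = 0.148). CDC25A, the remaining phosphatase, was not called for light in any culture (0.10 in Cry2, 0.09 in mCh).

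Of the 3 kinase inhibitors in the set, CDKN1B (p27), which binds CDK2 complexes, had opposite light changes in the co-cultured cells. It went from 1529, 1494 and 1479 to 1668, 1722 and 1966 in mCh cells (0.25, SE 0.09, adjusted p = 0.0274) and from 1560.3, 1402 and 1385 to 1168, 1039 and 1074 in neighbours (-0.41, SE 0.09, adjusted p = 0.0155). Neither pair of ranges overlapped, and the 2 effects differed by 0.65 (SE 0.12, adjusted p = 0.000642). The fall in neighbours missed the threshold without GFP light b, GFP light c or GFP dark a (adjusted p = 0.0835, 0.0619 and 0.08). The rise in mCh cells missed it in 5 of 11 alternatives (0.18, adjusted p = 0.13, without mCh light c; adjusted p = 0.0653 with only these groups fitted), and in Cry2 cells the change was 0.14 and not called (SE 0.08, adjusted p = 0.157). CDKN2D (p19), an inhibitor of CDK4 and CDK6, rose by 1.27 in mCh cells (SE 0.23, adjusted p = 0.000211), from 60.8, 66.1 and 64.1 to 136, 166 and 164; in Cry2 cells its change was 0.60 (SE 0.30, adjusted p = 0.106) with overlapping values. CDKN2C (p18) had 0 normalised reads in all 6 engineered dark libraries and 5.43 to 17.8 in the 6 engineered light libraries, below the level needed for a test.

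The RB family, whose proteins hold E2F factors inactive, and the E2F factors made up 8 genes. In Cry2 light 4 of them rose and 2 fell (28.1% and 30.4% of all genes). In mCh light 3 rose and 3 fell (27.2% and 28.7% of all genes). RB1 rose from 769, 874 and 726 to 1441, 1183 and 1343 in Cry2 cells (0.74, SE 0.13, adjusted p = 0.000167) and by 0.78 in mCh cells (SE 0.16, adjusted p = 0.000825). RBL2 (p130) rose by 0.55 in Cry2 (SE 0.13, adjusted p = 0.00172) and by 0.42 in mCh cells (SE 0.17, adjusted p = 0.0489), where it was 0.20 without mCh light a (adjusted p = 0.195). RBL1 (p107) was not called (-0.13 in Cry2, -0.23 in mCh), but was -0.52 in mCh cells without mCh light a (limma adjusted p = 0.00167). The activating factor E2F2 (chr1:23506430-23531220, minus strand) had the largest fall of all members. It dropped from 519.6, 372 and 502 to 107, 182 and 130.4 in Cry2 cells, a change of -1.75 (SE 0.18, adjusted p = 5.42e-07). In mCh cells it dropped from 602, 458 and 529 to 146, 214 and 206 (-1.49, SE 0.15, adjusted p = 8.36e-07). Dark and light libraries did not overlap in either, and neither wt (-0.22) nor GFP cells (0.22) passed the test. E2F2 was the lowest of the 5 E2F genes per kilobase of exon in every group, at 85.1 in Cry2 dark against 829.3 for E2F1.

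The other activating factors changed less: E2F1 by 0.22 in Cry2 (SE 0.07, adjusted p = 0.0156) and 0.20 in mCh cells (not called; 0.28 and adjusted p = 0.00466 without mCh light a), and E2F3 by -0.11 (not called) and -0.28 (SE 0.08, adjusted p = 0.0105). The 2 repressing factors went apart. E2F7 rose by 0.60 in Cry2 (SE 0.15, adjusted p = 0.00374) and 0.54 in mCh cells (SE 0.09, adjusted p = 0.00019). E2F8 fell by 0.41 in Cry2 (SE 0.14, adjusted p = 0.0169) and 0.38 in mCh cells (SE 0.15, adjusted p = 0.041).

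E2F factors bind sites near the start of many replication genes, and late cell cycle genes often carry a CHR element, which is bound by the MuvB complexes. Upstream sequence from RefSeq (GRCh38.p14), the 250 bases before the start, was held for 43 of the 53 members in 63 windows. TTTCCCGC or TTTGGCGC, on either strand, occurred in 12 of the 63 windows (19.0%) and in 1.93% of 35116 windows of all genes. The CHR letters TTTGAA, on either strand, occurred in 17.5% and 13.3%. Of the 12 members with an E2F match 4 rose and 3 fell in Cry2 light (28.1% and 30.4% of all genes), and 1 rose and 3 fell in mCh light (27.2% and 28.7%). Of the 10 with a CHR match 2 rose and 1 fell in Cry2 light, and 3 rose and 2 fell in mCh light. The windows below, chosen after their values were seen, pair genes that hold the same kind of match and moved in opposite directions in Cry2 light: TYMS rose and E2F2 fell with an E2F match, KIF11 rose and BUB1B fell with a CHR match. Each is written 5′ to 3′ on the gene's strand, with the match in capitals. The match begins 39 bases before the RefSeq start in TYMS, 42 in E2F2, 28 in KIF11 and 23 in BUB1B. These starts differ from those of the GENCODE 29 positions given elsewhere. In TYMS and BUB1B the match lies inside the gene as placed by GENCODE 29.
TYMS (chr18:657403-657652, plus strand): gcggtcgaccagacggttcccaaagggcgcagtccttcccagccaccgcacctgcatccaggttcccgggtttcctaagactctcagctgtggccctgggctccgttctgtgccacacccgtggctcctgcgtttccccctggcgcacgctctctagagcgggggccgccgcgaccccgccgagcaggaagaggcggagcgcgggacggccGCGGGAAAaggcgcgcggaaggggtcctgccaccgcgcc
E2F2 (chr1:23531234-23531483, minus strand): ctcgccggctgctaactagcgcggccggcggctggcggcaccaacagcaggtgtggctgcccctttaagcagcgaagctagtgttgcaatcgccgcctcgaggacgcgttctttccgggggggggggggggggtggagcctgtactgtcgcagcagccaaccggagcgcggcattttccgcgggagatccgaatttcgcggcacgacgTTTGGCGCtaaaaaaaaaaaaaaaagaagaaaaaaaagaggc
KIF11 (chr10:92592880-92593129, plus strand): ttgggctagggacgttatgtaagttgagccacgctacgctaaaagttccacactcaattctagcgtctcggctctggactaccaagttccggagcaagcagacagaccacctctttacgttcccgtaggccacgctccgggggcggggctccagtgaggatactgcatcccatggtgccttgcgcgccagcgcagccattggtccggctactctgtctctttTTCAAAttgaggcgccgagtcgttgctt
BUB1B (chr15:40160819-40161068, plus strand): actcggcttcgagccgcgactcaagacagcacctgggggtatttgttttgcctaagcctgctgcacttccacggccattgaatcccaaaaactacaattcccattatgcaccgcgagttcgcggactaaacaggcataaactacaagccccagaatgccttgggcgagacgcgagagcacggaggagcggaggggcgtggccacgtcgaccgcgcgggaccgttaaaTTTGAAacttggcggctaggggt
A match says only that these letters are present in the window. Windows for MCM5, BIRC5, WEE1, CCNE2, AURKA, CCND2, E2F8, MCM4, CDK2 and CCND1 were not used here.

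Origin licensing, the loading of the MCM helicase onto DNA before S phase, was not changed in 1 direction. The loading factors ORC1, CDC6 and CDT1 fell in engineered cells. ORC1, the large subunit of the origin recognition complex, changed by -0.31 in Cry2 (SE 0.06, adjusted p = 0.000161) and -0.25 in mCh cells (SE 0.09, adjusted p = 0.0291). The mCh call on ORC1 was lost in 5 of 11 alternatives: it was -0.16 without mCh light a (adjusted p = 0.0902), and the adjusted p was 0.0808 with only these groups fitted. CDC6 went from 6556, 6297 and 6049.7 to 4888, 4939.6 and 5065 in Cry2 cells (-0.34, SE 0.05, adjusted p = 2.59e-05) and changed by -0.43 in mCh cells (SE 0.07, adjusted p = 4.82e-05). CDT1, which brings the helicase to the origin, went from 4839, 4632 and 5408 to 3272, 3491 and 3353 (-0.55, SE 0.08, adjusted p = 2.01e-05). Its dark and light ranges did not overlap in Cry2 or mCh cells; in mCh cells the change was -0.43 (SE 0.14, adjusted p = 0.0175) and -0.23 without mCh light a. GMNN, the inhibitor of CDT1, rose by 0.29 in Cry2 cells (SE 0.07, adjusted p = 0.0034) and was not called in mCh cells (0.20, SE 0.08, adjusted p = 0.0562; 0.22 and adjusted p = 0.0307 without mCh light a).

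The 6 subunits of the MCM ring itself moved little. MCM3, MCM4 and MCM6 were not called for light in any culture, with Cry2 changes of -0.06 (95% interval ± 0.11), 0.07 and -0.02 (± 0.11). MCM2 rose from 8458, 8325 and 8684 to 10630.1, 11373 and 10913 in Cry2 cells (0.37, SE 0.05, adjusted p = 2.27e-05). In mCh light MCM2 had 9967, 13154 and 15215 and overlapped the dark values of 10169.7, 8829 and 9312; the change was 0.42 (SE 0.13, adjusted p = 0.0111), and 0.59 without mCh light a. MCM7 rose by 0.16 (SE 0.06, adjusted p = 0.0207) and MCM5 fell by 0.17 (SE 0.06, adjusted p = 0.0305) in Cry2 cells, and neither was called in mCh cells, though MCM7 was 0.29 higher there without mCh light a (limma adjusted p = 0.00211). MCM10, which acts when the helicase is switched on, rose by 0.50 in Cry2 (SE 0.07, adjusted p = 3.42e-05) and 0.40 in mCh cells (SE 0.08, adjusted p = 0.000466).

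The 2 enzymes of deoxynucleotide supply rose together in engineered cells. TYMS (chr18:657604-673578, plus strand), thymidylate synthase, went from 4374, 4333 and 4344 in Cry2 dark to 9171, 8823 and 9356 in Cry2 light, 2.10-fold higher in the mean (1.07 log2, SE 0.07, adjusted p = 2.29e-09). In mCh cells it went from 4552, 4366 and 4314 to 9323, 9609 and 10659.8 (1.16, SE 0.07, adjusted p = 1.89e-09). Wild-type cells stayed between 4198 and 5249.5 in all 12 libraries, below every engineered light library. The opposite strand holds ENOSF1 over 39.1% of the exon bases of TYMS. RRM2, a subunit of ribonucleotide reductase, went from 5673, 5551 and 5328 to 10369.5, 10349 and 11348 in Cry2 cells (0.95, SE 0.06, adjusted p = 2.11e-09) and from 6523, 6212 and 6304 to 11691, 11875 and 12424 in mCh cells (0.92, SE 0.07, adjusted p = 1.2e-08). In neighbours RRM2 rose as well, from 6482, 6904 and 6838 to 8535, 9107 and 8636 (0.38, SE 0.07, adjusted p = 0.00299), less than in mCh cells by 0.54 (SE 0.09, adjusted p = 0.000231). All of these ranges were separate. Of the exon bases of RRM2, 20.2% overlap the protein-coding gene AC007240.1 on the same strand. PCNA, the sliding clamp of the replicating polymerases, changed by -0.19 in Cry2 (SE 0.07, adjusted p = 0.0214) and -0.20 in mCh cells (not called).

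**Figure D4:**
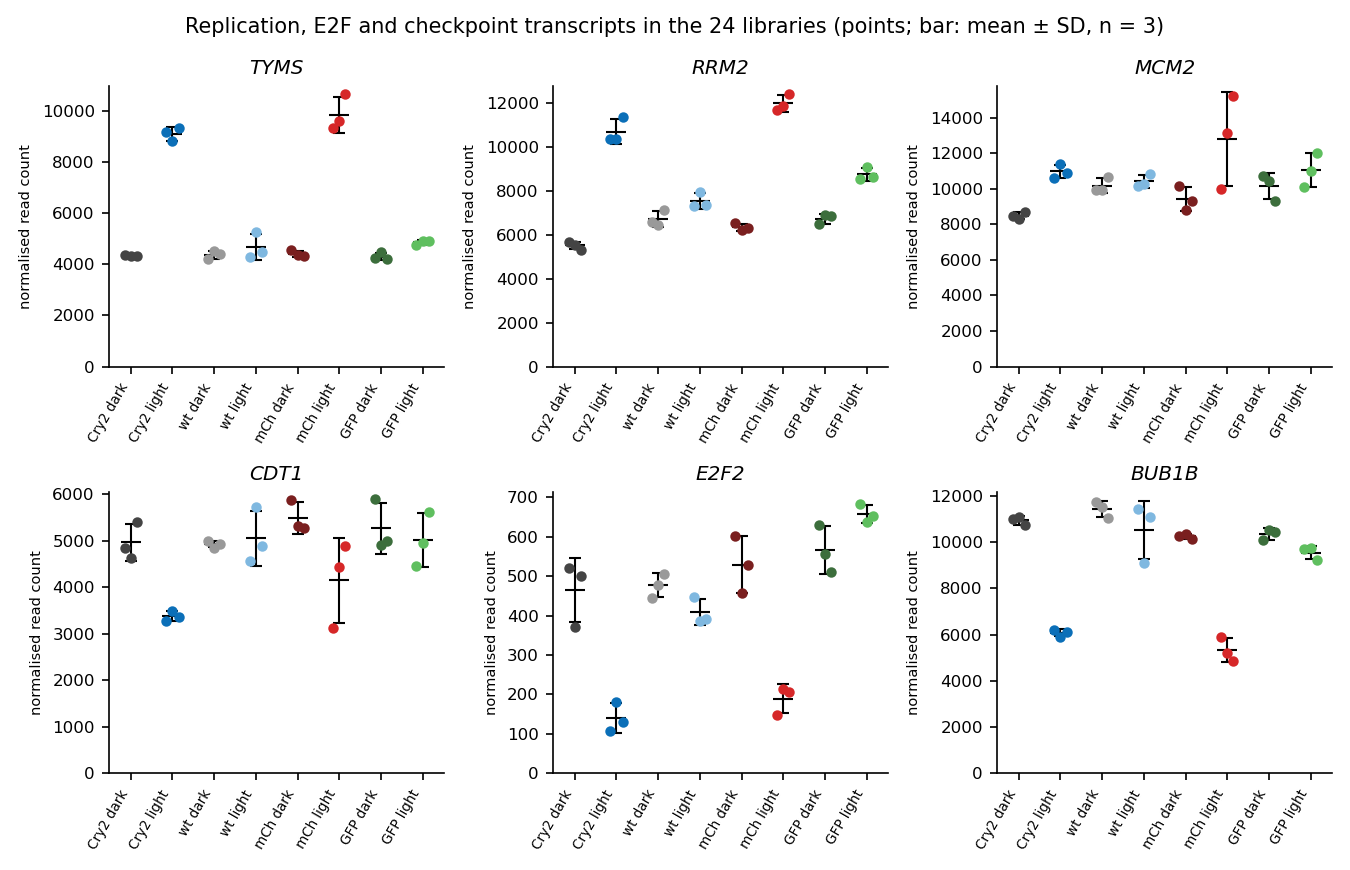
Normalised read counts (vertical axis, from 0) of 6 replication, E2F and spindle checkpoint genes in every library of the 8 groups (points), with the mean and SD of each group (bars, n = 3). TYMS and RRM2 are highest and E2F2 and BUB1B lowest in the 2 engineered light groups, while the 3 mCh light values of MCM2 and CDT1 are spread widely.

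Of the 10 mitotic genes 4 rose and 1 fell in Cry2 light, and likewise in mCh light. Over all genes 28.1% rose and 30.4% fell in Cry2 light, and 27.2% and 28.7% in mCh light. BUB1B (chr15:40161023-40221136, plus strand), which encodes the spindle checkpoint protein BUBR1, fell from 11023, 11099.9 and 10742 to 6214, 5909 and 6126 in Cry2 cells (-0.85, SE 0.07, adjusted p = 7.36e-08). In mCh cells it fell from 10282, 10365 and 10137 to 5915, 5218 and 4866 (-0.95, SE 0.07, adjusted p = 4.5e-08). The ranges were separate in both, and the changes in wt (-0.12) and GFP cells (-0.12) were not called. Of the exon bases of BUB1B, 10.2% overlap a read-through gene, BUB1B-PAK6, on the same strand. BUB1, the related checkpoint kinase, was not called for light in engineered cells (-0.26 and adjusted p = 0.00306 in mCh cells without mCh light a). In neighbours it went from 11398, 12467 and 12394 to 9903, 9206 and 9086 (-0.36, SE 0.09, adjusted p = 0.0271), but missed the threshold when any of GFP light b, GFP light c, GFP dark b or GFP dark c was left out (adjusted p = 0.105 to 0.122). Its difference from the mCh effect was 0.21 (SE 0.12, adjusted p = 0.2).

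CENPE, the kinetochore motor, went from 3857, 3887 and 3395 to 7102, 6454 and 7633 in Cry2 cells (0.93, SE 0.10, adjusted p = 9.96e-07). In mCh light its values of 9296, 5082 and 4011 were spread widely, with library a far above the others; the change was 0.86 (SE 0.25, adjusted p = 0.00943) and 0.51 without that library. CENPF, a long kinetochore transcript, rose by 0.41 in Cry2 cells (SE 0.12, adjusted p = 0.00851) and was not called in mCh cells, where the light values were 20439.9, 12489.8 and 10803 and the change went from 0.27 to 0.002 without library a. KIF11, the spindle motor Eg5, rose by 0.35 in Cry2 cells (SE 0.08, adjusted p = 0.00119; not called in mCh, 0.19, or -0.02 without mCh light a). AURKA, the centrosomal Aurora kinase, rose by 0.19 in Cry2 (SE 0.06, adjusted p = 0.0113) and 0.22 in mCh cells (SE 0.07, adjusted p = 0.0149). PLK1, a mitotic kinase, and BIRC5 (survivin) passed in mCh cells (0.30 and 0.30) and not in Cry2 cells (0.13 and 0.14), and the difference between the 2 cultures was called for neither (0.18 and 0.17, limma adjusted p = 0.964 for each). The PLK1 call was lost in 6 of 11 alternatives (0.19, adjusted p = 0.191, without mCh light c) and the BIRC5 call in 3 (0.20, adjusted p = 0.0672, without mCh light c). CDC20 and AURKB were not called for light in any culture (-0.10 and -0.01 in Cry2), though AURKB was 0.31 higher in mCh light without library a (adjusted p = 0.00371).

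In wild-type monocultures light changed no member past the threshold by limma (0 of 52; 0.072% of all genes in either direction), and edgeR and DESeq2 also called 0. At an unadjusted p below 0.05 there were 10 members and 2559 of 19444 genes. The depth of the light libraries exceeded that of the dark ones here as in the Cry2 cells, and the part of depth in either result was not tested. In neighbours 4 members were higher (CCND1, CCNE2, CCND2 and RRM2) and 2 lower (CDKN1B and BUB1), against 2.39% and 2.21% of all genes. CCND1, CCNE2 and RRM2 kept their call under every alternative and with any library left out. Tests of the difference in light effect between neighbours and wild-type monocultures called 3 members higher (CCND1, CCND2 and WEE1) and 0 lower (1.41% and 0.886% of 20322 genes). For WEE1 that difference of 0.37 (SE 0.10, adjusted p = 0.0468) was lost with no filter on low values, with edgeR and when any of several single libraries was left out. Reads of the Cry2 fusion in GFP light were 0.694% of the mCh light mean, against 0.649% in GFP dark, 0.669% in wt dark and 0.476% in wt light. The origin of these reads in wild-type cells was not tested. The puromycin resistance gene had a mean of 1.63 in GFP light and 2.50 in GFP dark. Its mean was 3189 in mCh light and 0 in wt dark and wt light. Of the 6 streak and mesoderm markers 4 rose in GFP light and 0 fell. As a share of the mCh light level they went, from GFP dark to GFP light, from 0.0165% to 0.428% (TBXT), 0.103% to 4.21% (EOMES), 0.0719% to 0.233% (MIXL1), 0.263% to 0.848% (MESP1), 0.0132% to 0.0461% (APLNR) and 0.934% to 0.864% (TBX6). The part of residual engineered cells in the neighbours' values was not tested. Of the members called in neighbours, CCND1, CCNE2 and RRM2 rose in mCh cells too. CCND2 and CDKN1B moved the opposite way in mCh cells, and BUB1 was not called there.

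**Figure D5:**
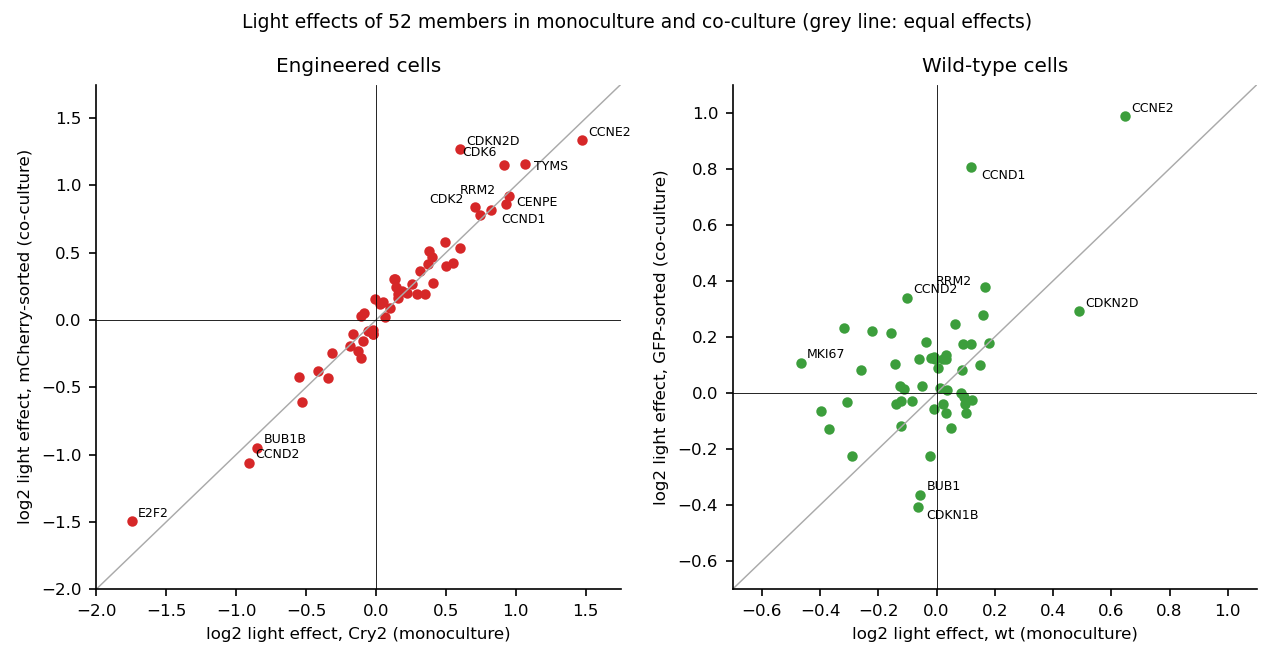
Log2 light effect of each of 52 members in monoculture (horizontal axis) against co-culture (vertical axis), for engineered cells (left) and wild-type cells (right); the grey line marks equal effects and the axes of the 2 panels differ. Engineered points follow the line, while CCND1 in wild-type cells lies at 0.12 in monoculture and 0.81 in co-culture.

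In the dark, 7 members differed between engineered and wild-type monocultures. In monoculture CCND2 and CDK6 were higher in Cry2 than in wt dark cells (0.35 and 0.45), and CCND1, MCM2, MCM4, MCM7 and RRM2 were lower, with log2 differences of -0.21 to -0.28. These were 2 higher and 5 lower members, against 2.27% and 1.33% of all genes. The 5 lower calls became 15 with only these 2 groups fitted, a setting for which the share of all genes is not given here. They fell to between 0 and 2 when any 1 of the dark libraries was left out, and to 0 without wt dark replicate 1, whose GC content was 33.7%, and Cry2 dark replicate 3, whose RNA integrity number was 7.6; CCND2 alone held throughout. In co-culture 0 of 52 members differed between mCh and GFP dark cells by limma (0.797% of all genes), and 0 by edgeR and by DESeq2. At an unadjusted limma p below 0.05 there were 2 members and 1098 of 19436 genes.

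Under light many members differed between the 2 kinds of cell, as did many other genes. In monoculture 20 members (38.5%) were higher and 13 (25.0%) lower in Cry2 than in wt cells, against 29.6% and 31.3% of all genes. Without wt light replicate 2 the counts were 23 and 17, with the shares of all genes in that setting not given here. With all libraries CDK6 was 1.65 and CENPE 1.00 higher, and E2F2 -1.57 on the same scale. In co-culture 18 (34.6%) were higher and 14 (26.9%) lower in mCh than in GFP cells, against 26.8% and 27.6% of all genes. The differences from these shares were not tested. In co-culture CDK6 stood at 1.42, TYMS at 1.02, CCND2 at -1.24 and E2F2 at -1.81. The lower count was 8 without GFP light b and 8 without GFP light c, and 22 of the 32 calls held under every alternative. CCND1 was higher in Cry2 than wt light (0.47, SE 0.06, adjusted p = 3.09e-06) but lower in mCh than GFP light (-0.24, SE 0.07, adjusted p = 0.00896; adjusted p = 0.0645 with only these 2 groups fitted). These comparisons share the light libraries of the engineered cells with those of light against dark.

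The light effect itself differed between engineered and wild-type monocultures for 21 members upward and 9 downward (22.8% and 25.0% of all genes). In co-culture it differed for 11 and 7 (19.5% and 21.0%), and CCND1 and CCNE2, which also rose in neighbours, were not among them. Of these differences 24 of 30 and 14 of 18 held under every alternative. E2F2 (-1.52 and -1.72) and CDK6 (1.20 and 1.38) gave the widest differences in monoculture, and with CCND2 (-1.40) in co-culture. TYMS differed by 0.98 in monoculture (SE 0.10, adjusted p = 6.64e-07) and 0.98 in co-culture (SE 0.10, adjusted p = 1.25e-06).

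Other genes of the cell cycle were counted on lists chosen by function, with earlier results of these data known. Over all genes 28.1% were higher and 30.4% lower in Cry2 light, and 27.2% and 28.7% in mCh light. Of 29 replication fork and origin genes 8 rose and 5 fell in Cry2 light, and 6 and 4 in mCh light; POLA2 (0.76), POLE (0.73) and FEN1 (0.66), parts of the polymerases and the flap nuclease, rose in Cry2 light, and ORC4 fell (-0.57). Of 6 genes of nucleotide supply 2 rose, RRM1 by 0.59 and DTYMK by 0.34 (0.26, adjusted p = 0.0533, without Cry2 dark replicate 1); 2 rose in mCh light too. Of 10 replication checkpoint genes 5 rose and 0 fell in each of the 2 comparisons, in Cry2 light among them TOPBP1 (0.71) and CLSPN (0.65). Of 11 genes of the DREAM, MuvB and FOXM1 complexes 6 rose and 0 fell in Cry2 light, and 5 and 0 in mCh light. LIN54 rose by 1.29 in Cry2 light and the low LIN37 (mean 33.3 in the dark and 70.8 under light) by 1.21, or 0.71 without Cry2 dark replicate 1 (adjusted p = 0.105). Of 20 spindle and kinetochore genes 15 rose and 1 fell, with a median log2 change of 0.376 against -0.006 over all genes; ANLN (0.68) and CENPA (0.67) rose and BUB3 fell (-0.52). In mCh light 14 of these 20 rose and 1 fell. Of 10 genes of the anaphase-promoting complex and its substrates and regulators 5 rose and 4 fell in Cry2 light, including a rise of 1.07 in FZR1, and 5 and 3 in mCh light. Among 3 further genes with a CDKN symbol, the inhibitor gene CDKN1A (p21) fell in Cry2 (-1.50), mCh (-1.38) and GFP cells (-0.87). The inhibitor gene CDKN1C (p57) rose in Cry2 (0.71) and mCh cells (1.00). CDKN3 rose in Cry2 (0.40), mCh (0.47) and GFP cells (0.49).

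The state of the cells changed with light at the same time. The summed level of 5 pluripotency markers ran from 226380 to 239450 in Cry2 dark and from 69036 to 70671 in Cry2 light, and that of 6 primitive streak and mesoderm markers from 202.4 to 261.6 and from 257990 to 266690. All 5 of the first list fell and all 6 of the second rose in both engineered light comparisons. The 3 endoderm markers summed to 2.61 to 8.93 in Cry2 dark and 9616 to 9922 in Cry2 light, almost all of it GATA6 (mean 2.42 and 9814); FOXA2 was low and not called (3.31 and 1.41), and SOX17 was too low to test. The sums of 3 neural markers were 1255 to 1485 and 1504 to 1907. Only 1 of these 3 was high enough to test (log2 change 0.315, called), and PAX6 had no reads in Cry2 light. For 3 amnion markers the sums were 624.9 to 739.7 and 77.8 to 113.1 (GABRP fell from a mean of 679.8 to 8.17 while ISL1 rose from 0.906 to 87.1). For 4 endothelial and blood markers, of which 1 was tested, they were 32.5 to 43.1 and 7.24 to 28.4. In GFP light the streak and mesoderm sum was 710.04 to 820.4, against 211 to 282.3 in GFP dark, and the pluripotency sum 244930 to 283850, against 221930 to 240290. The amnion sum was 493 to 588.1 in GFP dark and 93.0 to 124.3 in GFP light, with GABRP at means of 548.2 and 84.4 (log2 change -2.70, limma adjusted p = 0.00223). The part of this change of state in the cell cycle results was not tested.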

How the data were processed

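Poly-A RNA of 24 H9 libraries was sequenced from a stranded kit, per the labels' protocols. Per the submitters' processing notes the authors used FastQC, cutadapt, Bowtie2, STAR, HTSeq and DESeq (the sources used here give no versions). GRCh38 is named there, whereas the header of the deposited sample table names hg19 with 4 extra genes; the conflict was not resolved. Expression in the deposited table is a normalised signal: the read count of a gene over 1 factor per library; 100.0% of values were whole reads within 0.01 once each library's factor was recovered. The deposited sample table gives the GC percent of each library and the RNA integrity number, a quality score, both used for the 12 monocultures. Its columns tie co-culture libraries to a group but not to a replicate, so these are called a, b and c.

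Genes that reached a value of 10 in 3 or more libraries were tested on log2(value + 1) with limma 3.58.1 (R 4.3.3, trend, Benjamini-Hochberg over all genes, threshold 0.05). Log2 changes are on that scale and understate those of low genes. The 12 monoculture libraries were fitted together, the 12 co-culture libraries together, and all 24 for differences between cultures. Intervals (95%) use limma's moderated standard errors and degrees of freedom, and edgeR 4.0.16 and DESeq2 1.42.0 ran on the recovered reads. On simulated data all 3 tools found most genes changed 2-fold and fewer of those changed 1.5-fold, and their false calls were above the nominal share; the pass mark of that check was set after a stricter one had failed. Gene lengths and overlaps come from GENCODE 29 (GRCh38), matched by Ensembl identifier. All 53 members are named, and of the other lists up to 4 genes a direction with the largest called change in Cry2 light. Members and lists were chosen with earlier results of these data known.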

Additional observations from a re-analysis of the deposited data

Results flagged for a closer look

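For 51 pairs of a member and a comparison, the light effect differed between 2 kinds of cell by limma's test of the difference itself, at an adjusted p below 0.05 over all genes. Values are differences of log2 light effects, positive where the effect was higher in the cells named first.

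Between Cry2 and wt monocultures, the effect differed for CCND1 (0.70), CCND2 (-0.81), CDK4 (0.29), CDK6 (1.20), CCNE2 (0.82), CCNA2 (0.24) and CDK2 (0.71) among the cyclins and their kinases. Among kinase regulators and the RB and E2F families it differed for CDC25B (0.52), CDC25C (0.41), WEE1 (-0.37), RB1 (0.58), RBL2 (0.86), E2F1 (0.34), E2F2 (-1.52) and E2F7 (0.86). Licensing and replication genes in this group were ORC1 (-0.20), CDC6 (-0.37), CDT1 (-0.58), MCM2 (0.34), MCM5 (-0.28), MCM10 (0.44), PCNA (-0.28), RRM2 (0.79) and TYMS (0.98). Proliferation and mitotic genes were MKI67 (0.78), AURKA (0.24), BUB1B (-0.72), CENPE (0.99), CENPF (0.78) and KIF11 (0.47). In wt light replicate 2 the long members were low. Without that library the differences were 0.55 for MKI67, 0.86 for CENPE, 0.58 for CENPF and 0.68 for RBL2, all still past the threshold. Some of these calls were lost in part of the 18 alternatives: ORC1 in 17, CCNA2 in 13, AURKA in 7, CCNE2 in 6, PCNA in 2 and MCM5 in 1.

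Between mCh and GFP cells from co-culture, the effect differed for CCND2 (-1.40), CDK6 (1.38), CCNA2 (0.31) and CDK2 (0.72) among the cyclins and their kinases. Among kinase regulators, inhibitors and E2F factors it differed for CDC25B (0.81), CDC25C (0.53), WEE1 (-0.82), CDKN1B (0.65), CDKN2D (0.98), E2F2 (-1.72), E2F3 (-0.38), E2F7 (0.45) and E2F8 (-0.61). The rest were CDC6 (-0.56), RRM2 (0.54), TYMS (0.98), BUB1B (-0.83) and BIRC5 (0.37). Of 16 alternatives, the call was lost for BIRC5 in 10, for E2F8 in 6, for CDKN2D in 3 and for E2F3 in 1.

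Between wild-type neighbours and wild-type monocultures, the effect differed for CCND1 (0.69), CCND2 (0.44) and WEE1 (0.37), the last lost in 13 of 16 alternatives. These 2 cultures differ in sorting as well as in their neighbours, and sorting and co-culture cannot be told apart here.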

How the results depend on the processing

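Other settings were a pseudocount of 10, no filter on low values, edgeR with TMM scaling, DESeq2, a fit of only the groups compared, the replicate block, monocultures without the low-GC and low-RIN dark libraries, and each library left out. No called member reversed in any of them. The count of members lower in Cry2 dark than in wt dark moved most, from 5 to 2 with no filter, 15 with only the groups compared fitted, 2 with the replicate block, 0 without the low-GC and low-RIN libraries, and 0 to 2 with any dark library left out; the higher count went from 2 to between 1 and 2 with a library left out. Members lower in mCh light than in GFP light went from 14 to 7 with only these groups fitted, and to between 8 and 16 with a library left out. With only the groups compared fitted, 1 member was lower in mCh dark than in GFP dark, against 0. The 2 falls in GFP light became 0 to 2 with a library left out. The cause of these moves was not tested. Shares of all genes under the other settings are not given here, so these moves are not set against those of all genes.

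Replicate numbers exist for the monocultures. Same-numbered libraries of different groups did not deviate together (18 pairs, correlations of -0.047 to 0.046), so the numbers were not taken as pairs. With the replicate block 22 members were higher and 10 lower in Cry2 light, as without it, and the block moved no count by more than 1.5 times other than the 5 lower members in Cry2 dark named above. No paired analysis was possible for the co-cultures because their columns carry no replicate number. In both mCh light and GFP light 1 library was high in CENPE (log2 deviation of 1.04 and 0.754 from the other 2) and 1 low (-0.777 and -0.602); the labels do not say whether such libraries share a culture.

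Precision is limited by 3 libraries per group and by the low reads of CDKN2C, CDKN2D, CCNE2 and E2F2. It is also limited by the exon-length pattern over the members in mCh light a, wt light replicate 2 and, more weakly, GFP light a.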
